A study of Mus musculus with 28 samples.

Results

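The promoter contacts of uninduced Pre-B cells were taken from the interaction list of the 0h time point, which gives a captured promoter fragment (the bait), a partner fragment and a CHiCAGO score for each interaction. All of its 138769 interactions were used, out of 273644 different pairs of fragments in the lists of 0h, 1h, 12h and 48h. The cells were C10, a single mouse Pre-B line derived from HAFTL cells that carries a CEBPalpha-ER transgene, a fusion of rat C/EBPα with the hormone-binding domain of the estrogen receptor. At 0h no β-estradiol had been added, so the transgene was present and not induced, and the later lists, which come from the same line after induction, were used only to ask whether a 0h pair was also listed there. The list merges 2 Promoter Capture Hi-C (PCHi-C) libraries, and expression was taken from 3 RNA-seq libraries of 0h cells. The merged list holds no replicate values and no read counts, so its depth is unknown and the values below are descriptions with no test. Intervals on shares of interactions are 95% Wilson intervals, cover counting error only and treat interactions as independent, although neighbouring partners of a bait often are not.

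PCHi-C cuts crosslinked chromatin with a restriction enzyme, ligates ends that lie close together in the nucleus, and enriches with RNA probes for the ligated fragments that hold a promoter. Partners without a bait are called promoter-interacting regions (PIRs) and can hold enhancers, insulators or none of these, while an interaction between 2 captured promoters is called bait to bait. CHiCAGO scores how far the reads of a pair exceed those expected from random collisions at that distance and from technical noise, so a score measures evidence for a contact and not its frequency. Loops in mammalian nuclei often end at sites of the zinc finger protein CTCF whose motifs point toward each other, since cohesin that extrudes a loop is halted by CTCF in that orientation.

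The expression of marker genes fitted the label of the cells. The 12 Pre-B markers, which include surrogate light chain genes, Cd79a and Pax5, summed to 347, 325 and 303 TPM in RNA replicates 1, 2 and 3. Of these 11 were above 1 TPM, and Dntt, the terminal transferase of V(D)J joining, was at 0.84, 0.13 and 0.42 TPM. The 8 macrophage markers summed to 4.61, 4.54 and 3.34 TPM, with Cd68 and Lyz2 above 1 TPM and Adgre1, Itgax and Cd14 at 0 in all 3 libraries. T cell markers summed to at most 0.09 TPM, erythroid markers to at most 0.11 TPM, and the 4 fibroblast markers were at 0. In bulk RNA, fewer cells of a type and less RNA per cell cannot be told apart.

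The CTCF core motifs of 4 pairs are printed first, as selected examples. These are 4 high-scored pairs, chosen after their values were seen, that had exactly 1 core motif at each end, with the motifs convergent (the left one on the plus strand and the right one on the minus strand) and each bait used once. They are not typical of high-scored contacts. At scores of at least 25, the partner held a core motif in 9.97% of interactions and the bait in 9.66%. The motif is in capitals, the flanks are in lower case, and every sequence is read 5′ to 3′ on the strand of its motif from GRCm38.p6.
Sorbs2os bait, chr8:45817164-45817207, plus strand: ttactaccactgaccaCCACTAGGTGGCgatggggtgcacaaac
Ccdc110 end of the same pair, chr8:45934935-45934978, minus strand: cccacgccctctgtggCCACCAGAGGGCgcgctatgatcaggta
Cdc16 bait, chr8:13753856-13753899, minus strand: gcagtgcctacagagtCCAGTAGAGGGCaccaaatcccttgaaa
Cdc16 partner, chr8:13551133-13551176, plus strand: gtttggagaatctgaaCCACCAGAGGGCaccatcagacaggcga
Gm25153 bait, chr3:122468184-122468227, minus strand: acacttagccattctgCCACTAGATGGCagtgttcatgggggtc
Gm25153 partner, chr3:122312240-122312283, plus strand: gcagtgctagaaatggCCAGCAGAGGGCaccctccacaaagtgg
Enc1 bait, chr13:97235206-97235249, plus strand: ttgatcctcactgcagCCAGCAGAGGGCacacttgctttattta
Enc1 partner, chr13:97939057-97939100, minus strand: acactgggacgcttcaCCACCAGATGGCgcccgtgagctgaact

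The pair of Sorbs2os and Ccdc110 was bait to bait, spanned 117 kb and had a score of 39.45, with the first motif in an intron of Sorbs2 and Sorbs2os and the other in an intron of Ccdc110. The Cdc16 pair (score 35.07, 206 kb) joined an intergenic motif on the bait to an intron of 1700029H14Rik. Both ends of the Gm25153 pair (score 34.08, 155 kb) lay in introns of Bcar3. The Enc1 pair (score 33.79) reached 703 kb, from an intergenic motif on the bait to an intron of Arhgef28. All 4 pairs were also listed at 1h, 12h and 48h.

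The promoters of 3 genes that return in the results are shown as well, 250 bases before to 50 bases after the RefSeq start site of GRCm38.p6, on the strand of the gene. Spred1 held the highest score on 1 chromosome, Irf2bp2 the most interactions scored at least 25 on 1 chromosome, and Foxo1 a one-sided set of contacts over a long range. Capitals mark the GC box, searched as GGGCGG and, for the other strand, as CCGCCC.
Spred1, chr2:117120821-117121120, plus strand: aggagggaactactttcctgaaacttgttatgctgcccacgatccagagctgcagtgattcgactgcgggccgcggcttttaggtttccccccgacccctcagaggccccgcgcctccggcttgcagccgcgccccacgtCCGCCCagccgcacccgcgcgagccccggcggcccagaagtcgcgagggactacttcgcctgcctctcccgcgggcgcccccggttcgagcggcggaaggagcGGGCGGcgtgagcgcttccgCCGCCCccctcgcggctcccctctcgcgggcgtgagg
Irf2bp2, chr8:126593937-126594236, minus strand: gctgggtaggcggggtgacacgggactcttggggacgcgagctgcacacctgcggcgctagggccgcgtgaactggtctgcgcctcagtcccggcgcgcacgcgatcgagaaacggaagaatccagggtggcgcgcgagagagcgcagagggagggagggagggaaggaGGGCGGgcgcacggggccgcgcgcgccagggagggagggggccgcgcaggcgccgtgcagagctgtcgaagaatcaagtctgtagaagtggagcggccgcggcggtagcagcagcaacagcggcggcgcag
Foxo1, chr3:52268087-52268386, plus strand: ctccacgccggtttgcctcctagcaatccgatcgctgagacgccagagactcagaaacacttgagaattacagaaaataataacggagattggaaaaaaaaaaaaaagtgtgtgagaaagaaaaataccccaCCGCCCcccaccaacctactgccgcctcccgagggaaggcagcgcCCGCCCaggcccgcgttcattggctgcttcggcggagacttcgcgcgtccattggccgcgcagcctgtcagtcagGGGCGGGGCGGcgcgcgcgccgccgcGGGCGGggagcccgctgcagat

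All 3 are GC-rich windows. Spred1 had 3 GC boxes and 40 CpG (GC content 72.3%), Irf2bp2 1 GC box and 39 CpG (71.7%), and Foxo1 5 GC boxes, of which 2 overlap, and 31 CpG (61.3%). A GC box was found in 35.7% of the 32851 promoter entries of the same length. None of these baits held a CTCF core motif.

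The next question was how the score of a contact varied with its class. The quartiles of the score were 5.70, 6.81 and 9.03 above the threshold of 5 that the authors applied, and 6.26% of interactions scored at least 15. Distance between fragment midpoints had almost no monotonic relation to the score (Spearman's rho -0.0086 across interactions on 1 chromosome, which share baits and libraries). The share scored at least 10 was lowest at 25-50 kb (15.7%, interval 14.9-16.5) and reached 20.6% at 100-200 kb (20.22-21.04) and 22.4% over 1 Mb (20.9-24.0). Most of the list lay between these ends, with 37664 interactions at 100-200 kb and 52427 at 200-500 kb against 8286 under 25 kb.

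**Figure D1:**
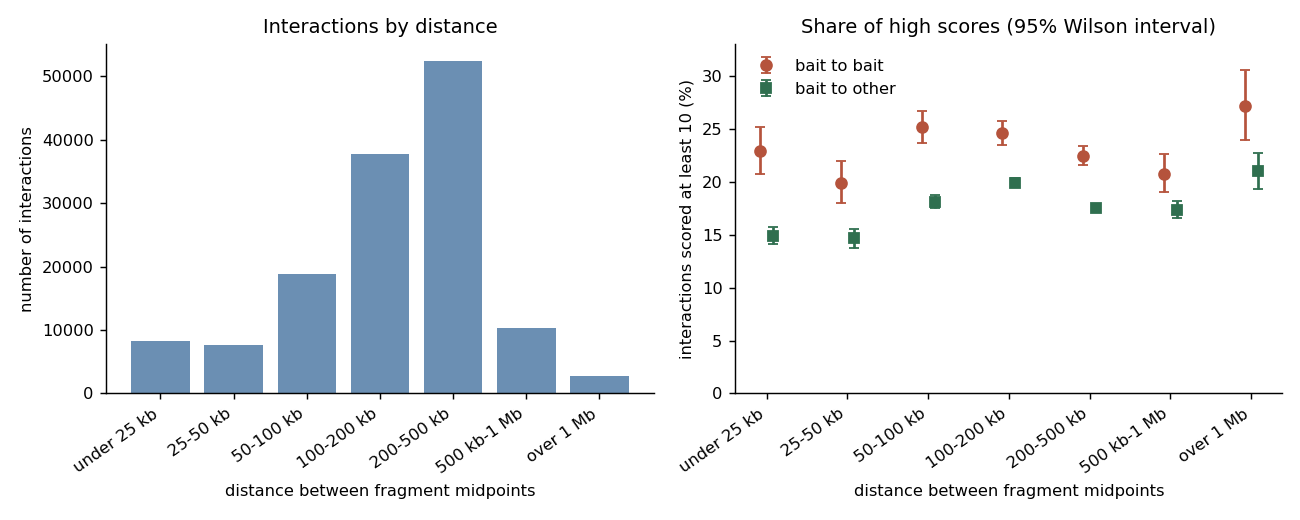
Left, the number of interactions on 1 chromosome (y axis) in 7 classes of distance between fragment midpoints (x axis). Right, the share scored at least 10 in percent for bait to bait (circles) and other (squares) interactions, with 95% Wilson intervals as bars; the circles lie above the squares in each class, for example at 22.9% and 14.9% under 25 kb.

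Bait to bait interactions scored higher than the others in every distance class. Their median score was 7.17 against 6.75, and 23.3% (22.7-23.8) of 22809 scored at least 10 against 18.4% (18.2-18.6) of 115960. Under 25 kb these shares were 22.9% (20.7-25.1) and 14.9% (14.1-15.8), and over 1 Mb they were 27.1% (23.9-30.6) and 20.97% (19.3-22.7). Bait to bait interactions made up 14.7% of those scored 5-7, 21.3% of those scored 15-25 and 18.1% of those scored at least 25. Bait fragments were longer than PIRs, with a median of 5732 bp for the partners in bait to bait pairs and 2656 bp for the others, and the part of fragment length in this difference was not tested.

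The highest scores fell into a narrow range. On 1 chromosome 284 interactions scored from 31 to under 34, 442 from 34 to under 37, 20 from 37 to under 40, 19 from 40 to under 50 and 13 from 50 to under 100. No such pile appeared between chromosomes, where 14 interactions scored from 34 to under 37 and 145 scored at least 50. The order of the many baits whose best score lies between 34 and 37 is therefore not read below.

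Pairs with higher scores were more often listed again after induction. Of interactions scored 5-7, 40.9% (40.5-41.2) were also listed at 1h, and this share was 67.2% at 7-10, 86.8% at 10-15, 96.4% at 15-25 and 98.2% (97.5-98.7) at 25 or more. At 48h the shares in the same order were 40.1%, 64.3%, 83.9%, 93.8% and 97.3%. Pairs found in all 4 lists were 34.8% of all 0h pairs, 16.7% of those scored 5-7 and 94.6% of those scored at least 25. Short contacts were relisted more often than long ones, with 67.5% at 1h under 25 kb and 31.4% over 1 Mb. When a partner within 10 kb of the same fragment was accepted, 71.2% of the interactions scored 5-7 had a counterpart at 1h.

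Contacts were spread unevenly over baits. Of 18175 baits in the 4 lists, 15157 had an interaction at 0h, counting both ends of bait to bait pairs. They had 10.7 ± 12.9 interactions (SD over baits), with a median of 6 and quartiles of 2 and 14. A single interaction was listed for 2407 baits (15.9%), while 309 baits (2.04%) had at least 50 and touched 14.7% of all interactions. Neighbouring partner fragments were often listed together, and 57.6% of interactions had the adjacent fragment listed for the same bait. Joined into runs of adjacent fragments, the interactions formed 83537 blocks, with a median of 4 blocks per bait and at most 60.

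Baits with many contacts also held higher scores. The share of interactions scored at least 10 was 5.70% (4.77-6.78) for baits with 1 interaction, 11.3% for baits with 6-10, 22.3% for those with 21-50 and 35.3% (34.6-36.0) for those with over 50, by the bait column. Counted in the same way, the share of bait to bait interactions went from 42.4% for baits with 1 interaction to 6.08% for those with over 50. Pairs in which such a bait stood as the partner are all bait to bait and are left out of its class here. Both shares are therefore too low, and their order with both ends counted was not tested. Of the 63554 PIRs, 59.7% were listed with a single bait, and the most shared PIR was listed with 32 baits.

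Contacts per Mb differed widely between chromosomes. Chromosome 7 had 12349 interactions and chromosome 11 had 12058, which was 84.9 and 98.8 per Mb, against 44.6 per Mb on chromosome 1. The X chromosome had 3361, or 19.7 per Mb, and the Y chromosome 28. Per bait the chromosomes were much closer, from 8.82 (chromosome 2) to 12.7 (chromosome 14) on autosomes and 9.13 on X. Of the X baits 76.3% had an interaction, where the autosomes ranged from 78.8% on chromosome 13 to 86.7% on chromosome 11. Chromosome 12 had the largest share scored at least 10 of the autosomes (22.4%), chromosome 16 the smallest (17.4%), and X had 17.5%. Median distances lay between 166 kb on chromosome 7, which also had the largest share of bait to bait interactions (24.3%), and 240 kb on chromosome 13.

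**Figure D2:**
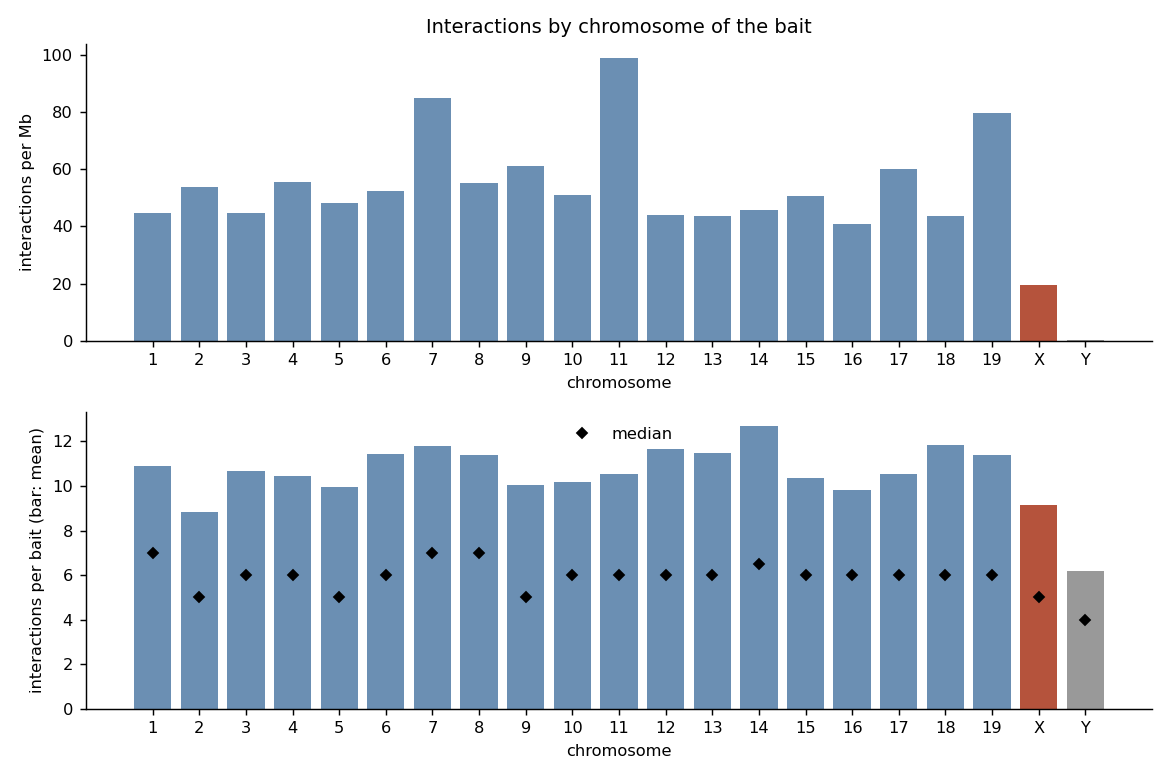
Interactions per Mb (top) and interactions per bait (bottom, bars are means and diamonds medians) for each chromosome on the x axis, with X and Y coloured apart from the autosomes. Chromosomes 7, 11 and 19 stand high per Mb at 84.9, 98.8 and 79.5, while the means per bait on autosomes lie between 8.82 and 12.7.

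Expressed genes had more contacts than silent ones. Genes were put into the 4 classes of mean TPM that the study uses, and the interactions of all baits holding one of their start sites were counted. Median interactions per gene were 2, 5, 8 and 10 at 0, 0-1, 1-5 and above 5 TPM, and an interaction was listed for 75.9%, 87.3%, 94.4% and 95.5% of genes. The gap between the means of the top and bottom classes was 8.96 interactions, and it was between 8.71 and 8.98 when each RNA library was left out in turn. Counting only interactions scored at least 10, it was 2.25. The median of the highest score of a gene was 8.55, 9.98, 11.1 and 12.2 in the same order. The contacts of expressed genes were also shorter, with a median of 213 kb for genes at 0 TPM and 163 kb for genes above 5 TPM.

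Read the other way, protein-coding genes with more contacts had higher expression. The 2294 protein-coding genes with a bait and no interaction had a median of 0 TPM in each of the 3 libraries. Genes with 6-10 interactions had medians of 1.18, 1.08 and 0.96 TPM in replicates 1, 2 and 3, and the 355 genes with over 50 had 2.54, 2.39 and 2.16 TPM. The ranges of the libraries did not overlap between these groups. Still, 16.1% of genes without an interaction were above 1 TPM, against 71.5% of those with over 50.

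**Figure D3:**
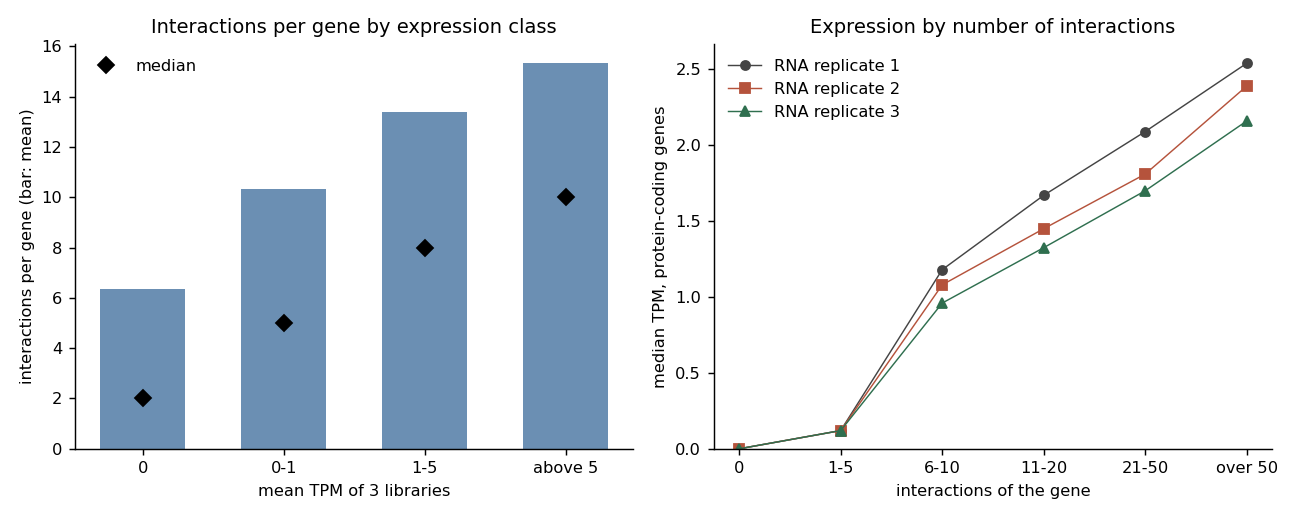
Left, interactions per gene (bars are means, diamonds medians) in 4 classes of mean TPM of the 3 RNA libraries of 0h. Right, median TPM of protein-coding genes by their number of interactions, with 1 line for each RNA replicate; all 3 lines go from 0 for genes without an interaction to between 2.16 and 2.54 for genes with over 50.

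Promoters that contacted each other tended to share their expression state. In 22144 bait to bait pairs with annotated genes at both ends, both baits held a gene above 1 TPM in 38.8%, 1 of them in 38.0% and neither in 23.2%, while 45.3% of all baits with an interaction held such a gene. When the bait held a gene above 1 TPM the partner did so in 65.3% of pairs, and otherwise in 42.8%. The share with both above 1 TPM was 34.5% at scores of 5-7 and 50.8% at 25 or more. Neighbouring promoters share their region, and the part of this in the shares was not tested.

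Partners were found about as often upstream as downstream of the promoter. Among 83175 interactions of baits whose genes lie on a single strand with a PIR on the same chromosome, 52.3% of partners were downstream, 7.20% within the gene of the bait itself and 62.0% within some protein-coding gene. For baits with a gene above 1 TPM, the nearest such start site to the partner belonged to the bait in 23.0% (22.6-23.4) of 42942 interactions. This share was 78.5% (76.9-79.9) under 25 kb, 18.8% at 100-200 kb and 1.86% over 1 Mb. Over all distances 40.0% of these interactions had no other expressed start site in between. At scores of 25 or more 50.9% of partners were in protein-coding genes, against 62.6% at 5-7.

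CTCF core motifs were more frequent in contacted fragments, and more so at higher scores. The core motif was found in 1.13% of 767999 HindIII fragments that took part in no 0h interaction, in 4.27% (4.11-4.43) of PIRs and in 7.14% (6.73-7.57) of baits. Fragment length differed as well, with medians of 2138 bp for all HindIII fragments, 2826 bp for partners and 5893 bp for baits. Among fragments of 2 to 6 kb the share was 4.34% in PIRs and 1.30% in those without an interaction. Baits were not compared at equal length, so their higher share per fragment is not read as a higher density of motifs. By the highest score of the PIR the share was 3.15% (2.96-3.36) at 5-7, 5.31% (4.89-5.77) at 10-15 and 9.63% (8.16-11.3) at 25 or more. PIRs listed with a single bait had a motif in 3.56% of cases and those with 5 or more baits in 7.06%. Median GC content was 40.6% in fragments without an interaction, 43.6% in PIRs and 47.5% in baits, so GC content moved with the first comparison. By score, the median GC content of PIRs was 43.5% at 5-7 and 43.9% at 25 or more. In PIRs over 44% GC the motif share was 4.73% at 5-7, 10.5% at 15-25 and 14.1% at 25 or more, beside 2.23% without an interaction, and at 41-44% GC it was 2.62%, 5.63% and 5.56%, beside 1.20%. Under 38% GC it was 1.01%, 3.87% and 3.38%, beside 0.363%.

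The direction of the motif followed the direction of the contact. Of 7581 interactions whose partner had motifs on 1 strand only, the motif pointed toward the bait in 69.3% (68.2-70.3), where equal shares of both directions would give 50%. The share was 66.1% (64.5-67.6) at scores of 5-7, 74.1% at 10-15 and 83.5% (77.3-88.3) at 25 or more. Under 25 kb it was 46.9% (41.6-52.2), and at 500 kb-1 Mb it was 74.0% (70.1-77.6). Motifs on the bait pointed toward the partner in 63.5% of 11083 interactions. In the 752 pairs with motifs on 1 strand at both ends, as in the sequences above, 44.0% were convergent, 45.9% tandem and 10.1% divergent, and the convergent share was 39.7% (34.5-45.1) at 5-7 and 56.7% (44.1-68.4) at 15-25. Only 1.36% of partners on another chromosome held a motif, close to the 1.13% of fragments without an interaction.

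**Figure D4:**
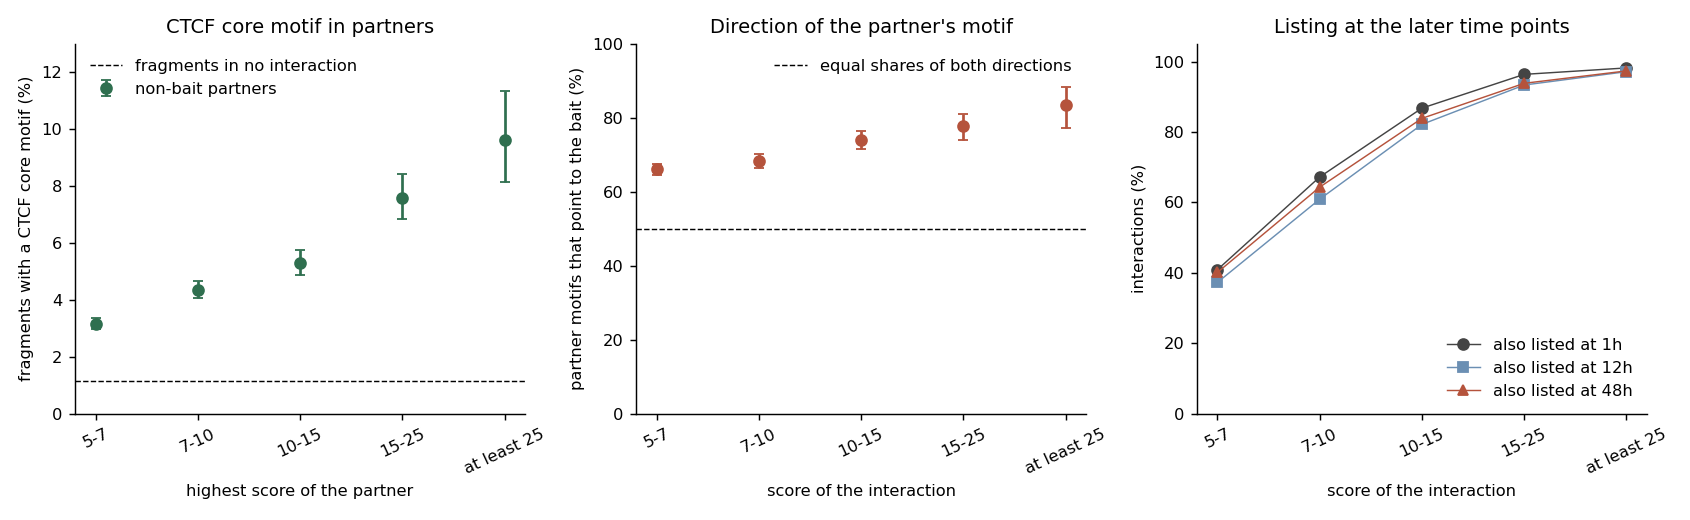
Left, the share of PIRs with a CTCF core motif by their highest score, with the 1.13% of fragments in no interaction as a dashed line. Middle, the share of partner motifs that point to the bait, with the dashed line at equal shares. Right, the share of 0h interactions also listed at 1h, 12h and 48h, from 40.9%, 37.3% and 40.1% at scores of 5-7 to over 97% at 25 or more. Bars in the first 2 panels are 95% Wilson intervals and x axes are score classes.

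The highest score on 1 chromosome was 93.01, from the bait of Spred1 (chr2:117119733-117123014), an inhibitor of Ras signalling, to an intergenic fragment 148 kb upstream (chr2:116969944-116977722). Spred1 was expressed at 11.04, 8.94 and 7.94 TPM and had 75 interactions, 50 of them scored at least 10, with 59 on the upstream side. Its second score was 36.72, and 58 of the 75 pairs were in all 4 lists. The next were the bait of the cyclin gene Ccni, with 88.58 to the promoter of another cyclin gene, Ccng2, 61.8 kb away, and the bait of Bin3, with 78.22 to an intron of Pebp4 at 233 kb. Pxk, which encodes a PX domain protein with a kinase-like region, had 73.69 to a fragment in its own intron 59.1 kb downstream, 87 interactions, and 8.96, 7.35 and 6.69 TPM.

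Irf2bp2, which encodes a corepressor that binds the interferon regulatory factor IRF2, had the most scores of at least 25 among baits when contacts on 1 chromosome were counted. Its bait (chr8:126590334-126595379) had 122 interactions in 14 blocks, 91 scored at least 10 and 33 scored at least 25. The highest, 69.76, joined an intergenic fragment 164 kb upstream (chr8:126753499-126759457), and 95 of the 122 partners lay on that side, at expression levels of only 3.47, 3.28 and 3.66 TPM. Pairs in all 4 lists numbered 89. Car2, a carbonic anhydrase gene, was alike in form, with 102 interactions, 90 of them downstream, a highest score of 65.05 at 305 kb, and 6.69, 6.46 and 6.93 TPM.

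**Figure D5:**
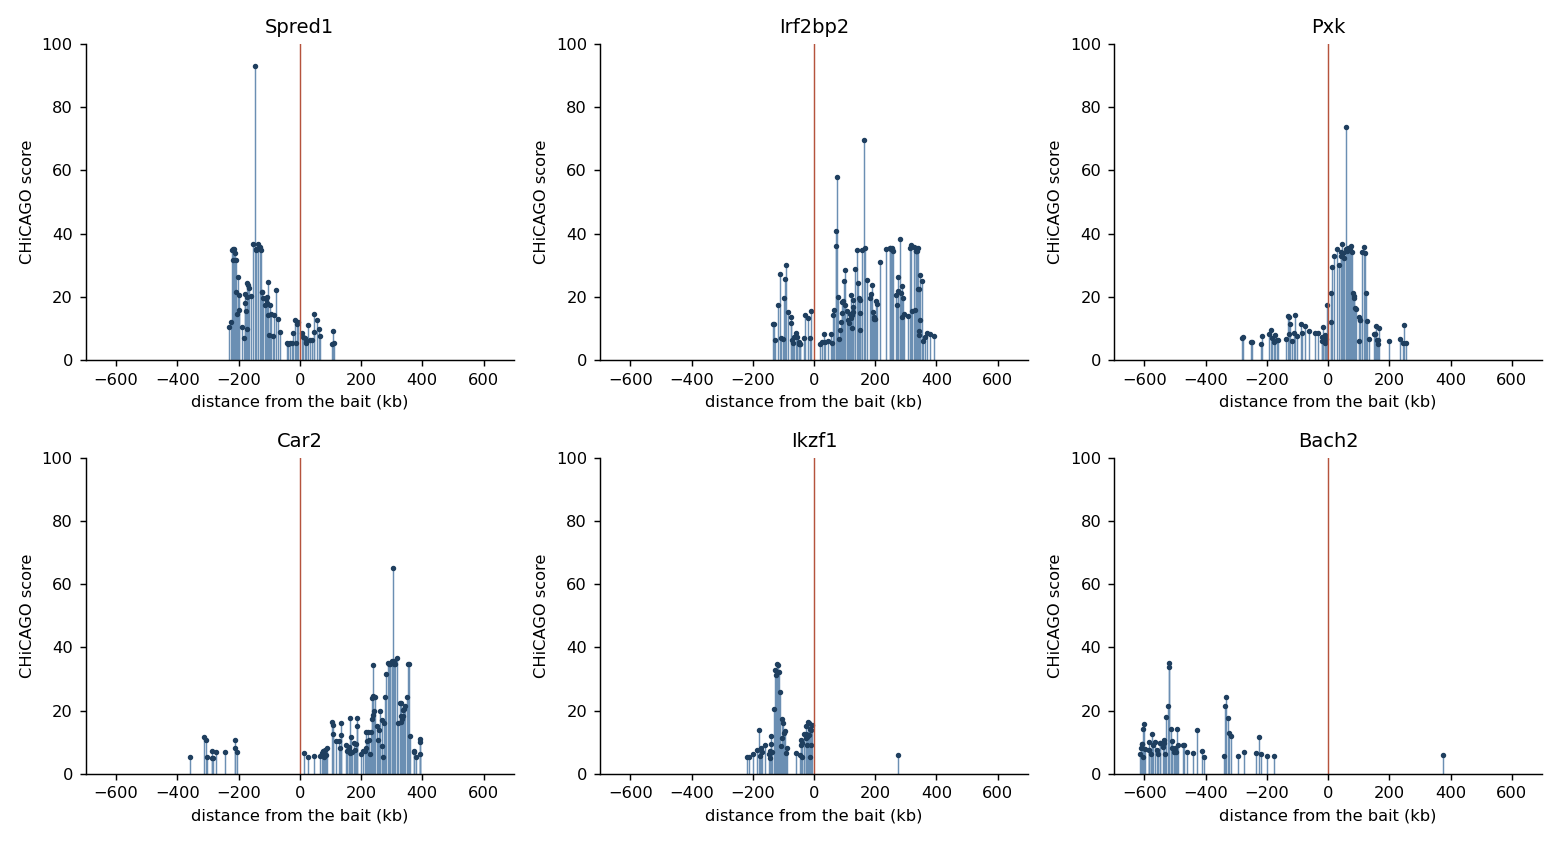
CHiCAGO score (y axis) of the interactions in the plotted range against the signed distance of the partner from the bait in kb (x axis, positive toward higher coordinates) for 6 promoters, with the bait as a vertical line. Contacts of Irf2bp2 and Car2 lie mostly to the right, those of Ikzf1 almost all to the left, and the single highest points are 93.01 for Spred1 and 73.69 for Pxk; for Bach2 the bait with the most interactions is drawn.

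Other promoters among the 15 with the highest scores were expressed at very different levels. Cd164, a sialomucin gene, had 51.68 to Ccdc162 at 161 kb and 15.34, 13.44 and 10.11 TPM. Ankrd13c had 48.25 to the promoters of Lrrc40 and Srsf11 at 89.4 kb, and Nemf, whose product works in ribosome quality control, had 47.79 to the bait of Vcpkmt at 226 kb. Pcm1, a gene of centriolar satellites, had 46.19 to an intron of Mtus1 at 193 kb, a fragment with 1 core motif on the minus strand. The ETS factor gene Etv5 had 45.97 to an intron of Dgkg at 110 kb. Amy2a1, a pancreatic amylase gene at 0 TPM in all 3 libraries, had 58.74, but its bait spans 158499 bp within a family of similar genes. Every one of these highest pairs was also listed at 1h, 12h and 48h.

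Some baits with very many contacts had no score as high as these. Cdkl3 and Pmis2 had 121 interactions each, with highest scores of 34.5 and 30.78, and Akap13, a scaffold for protein kinase A, had 107 with a highest score of 20.46. Clasrp had 109, the bait shared by Ap4s1 and Strn3 107, and the basic helix-loop-helix gene Usf2 106. Expression did not sort them: Pmis2 was at 0 TPM in all libraries, Cdkl3 at 0.64, 0.46 and 0.26 TPM and Usf2 at 8.44, 10.61 and 8.85 TPM. The highest score of Usf2, 31.27, was to the start site of the B cell receptor inhibitor Cd22, 79.6 kb away, and the bait of Cd22 had its own highest score, 24.65, with the bait of Usf2.

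Scores of at least 25 on 1 chromosome were held by 869 baits, of which 481 had 1 and 17 had at least 10. The baits with the most, a list chosen after their values were seen, were Irf2bp2 with 33, Pxk with 21, the bait of Spata48 and Zpbp with 16, Gm11998 and Itga4 with 15 each, and Gm12000, Spred1, Car2, Tarbp1 and the bait of Chd2 with 14 each. Thbd had 12 and the bait of Jun 10.

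Several of these baits lie side by side around Ikzf1, which encodes Ikaros, a zinc finger factor needed for lymphocyte development. Among 500 kb windows, that of chr11:11500001-12000000 had the most interactions scored at least 15 (146 of 525, 27.8%), where 5.93% of all interactions under 1 Mb reached that score and the median window had none. They came from 7 baits, with 42 from Gm11998, 31 from Gm12000, 28 from Spata48 and Zpbp, 15 from Fignl1, 13 from Ikzf1, 12 from 1700042O10Rik and Ddc, and 5 from 4930512M02Rik. Only Ikzf1 among them was highly expressed (33.94, 26.57 and 27.11 TPM), while the mean of the highest gene was 4.21 TPM on the Fignl1 bait, 2.52 TPM on the Ddc bait and under 1 TPM on the other 4. The window with Irf2bp2, Rbm34 and Tomm20 (chr8:126500001-127000000) came next with 121 of 331 (36.6%). Windows with the MHC region genes on chromosome 17 (68 of 618) and with the protocadherin gamma genes on chromosome 18 (66 of 555) were also among the first 7.

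The promoters of B-lineage transcription factors had more and higher-scored contacts than protein-coding promoters in general. All 18 had an interaction, with a median of 19 per gene and 15 genes reaching a score of 10, where the 16521 protein-coding genes with a bait had a median of 5 and 43.0% reached 10. The median of the highest score was 17.6 for these factors and 9.99 for all protein-coding genes with an interaction. Expression goes with it, since 17 of the 18 were above 1 TPM against 7216 of 16521, and its part in the difference was not tested.

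Ikzf1 had 51 interactions, 50 of them upstream of its start, with a highest score of 34.78 at 120 kb in intergenic sequence, and 43 of the 51 were in all 4 lists. Bach2, a repressor that guards B cell identity, had 88 over 2 baits and 6.29, 3.74 and 4.08 TPM. Its highest score, 35.02 at 520 kb, was measured from a bait (chr4:32571354-32580820) that also holds a start site of Bach2os. That bait lies near the downstream end of Bach2 (chr4:32238804-32586108, plus strand), far from the first start site of the gene. Lef1, an effector of Wnt signalling in early B cells, had 73, of which 68 were upstream, with 32.22 at 347 kb. Foxo1, which drives Rag expression, had 50, all downstream, between 123 and 1192 kb away and none within the gene, with 30.35 at 573 kb and 4.15, 2.88 and 2.80 TPM.

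The master regulators of B cell commitment also had one-sided contacts. Pax5 had 37 interactions, all upstream of its start between 31.5 and 694 kb, with a highest score of 23.19 and 17.02, 17.5 and 16.85 TPM. Ebf1 had 18, all downstream between 387 and 1266 kb, of which 3 were within the gene, with 24.69 as the highest and 18.48, 15.64 and 13.09 TPM. In contrast, 60 of 66 contacts of Foxp1 were within its own gene of 597 kb. Irf4 had 13, all upstream and none scored at least 10 (highest 8.96), of which 2 were listed at 1h and 12 at 48h. Ikzf3, at 0.67, 0.53 and 0.96 TPM, had 4, and none was listed at 1h or 48h. Pou2af1, at 31.06, 29.88 and 25.74 TPM, had 22 interactions with 13.51 as the highest, while Lef1 was at 28.28, 31.7 and 26.38 TPM.

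The pre-B cell receptor pairs a heavy chain with a surrogate light chain and signals through Cd79a, Cd79b and cytoplasmic kinases. The 15 genes of this list with a bait all had an interaction, with a median of 12 and 13 genes (86.7%) reaching a score of 10. Blk had no bait in the 4 lists. Lyn, a Src family kinase, had 49 interactions and 34.66 to an intergenic fragment 32.8 kb upstream. Cd79a, which shares its bait with Arhgef1, had 27.37 to the start of Rabac1 at 73.0 kb, and Cd79b 22.46 to the start of Icam2 at 77.2 kb. The surrogate light chain genes Vpreb1 and Igll1, at 44.73, 47.4 and 38.26 TPM and at 61.23, 50.87 and 42.64 TPM, share a bait that had 3 interactions, all bait to bait, with 13.21 as the highest. Vpreb3, the most expressed of the markers at 79.64, 75.69 and 76.44 TPM, had 2 interactions. So high expression in these genes went with few contacts as well as with many.

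Genes of V(D)J recombination and the IL-7 axis were close to the general level. All 15 had an interaction, with a median of 7, and 8 (53.3%) reached a score of 10, against 5 and 43.0% for all protein-coding genes. Xrcc5, which encodes the Ku80 end-binding protein, had 29.99 to the start of Smarcal1 at 276 kb, and the kinase gene Jak1 had 22.37 to 0610043K17Rik at 84.9 kb. Xrcc4 and Lig4, partners in end joining, had 18.27 and 16.7 from baits shared with Tmem167 and Abhd13. The IL-7 receptor gene Il7r had 29 interactions, 27 of them upstream, with a median distance of 775 kb and a highest score of 15.67. The recombinase genes Rag1 and Rag2 had 4 and 7 interactions with 10.11 and 7.65 as the highest.

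Macrophage genes had an interaction about as often as protein-coding genes in general. Of 24 with a bait, 20 (83.3%, interval 64.1-93.3) had one, against 86.1% of all protein-coding genes, with a median of 8 interactions, and 13 (54.2%) reached a score of 10, against 43.0%. Of the 24, 5 were above 1 TPM. Silent genes are thus a closer comparison: 72.7% of protein-coding genes at 0 TPM had an interaction, with a median of 2. Of all genes at 0 TPM, 29.2% reached a score of 10. Fcer1g, at 0 TPM, had 24 interactions and 29.03, but its bait also holds the start site of another gene. Cebpb, at 2.94, 2.72 and 2.45 TPM, had 18 interactions and 21 to an intergenic fragment at 208 kb, also from a bait with the start site of another gene. The Fc receptor gene Fcgr1, at 0.06, 0.05 and 0.06 TPM, had 19 and 17.7 to a fragment at 155 kb that overlaps or borders BC107364. Cd14, at 0 TPM, had 5 and 16.11 to the start of Ankhd1. Cebpa, Clec4e and Msr1 were among those without a listed interaction, and Csf2ra, Csf2rb, Fcgr3 and Lyz2 had no bait in the 4 lists. Cebpa itself was at 20.11, 21.41 and 23.91 TPM, and transcripts of the gene and of the transgene were not separated here.

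Of 13 architectural protein genes with a bait 12 had an interaction, with a median of 6 against 5 for all protein-coding genes. A score of 10 was reached by 6 (46.2%), led by the cohesin regulators Pds5b (22.6 at 690 kb), Wapl (19.52 at 81.9 kb), Nipbl (15.08 at 137 kb) and Pds5a (12.71 at 299 kb). All 19 Polycomb genes with a bait had one, with a median of 10, and 8 (42.1%) reached 10. They were led by Eed with 33.66 to the start of Ccdc83 at 287 kb, Phf19 with 19.36, Ezh2 with 16.67 and Bmi1 with 15.71.

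Developmental regulators, of which 1 was above 1 TPM, had fewer but longer contacts than protein-coding genes in general, and more than silent ones. Of 32 with a bait, 28 (87.5%) had an interaction, with a median of 3.5 interactions, and 12 (37.5%) reached 10. For all protein-coding genes these values were 86.1%, 5 and 43.0%. Protein-coding genes at 0 TPM had a median of 2, and 72.7% of them had an interaction. The median distance per gene was 370 kb, against 192 kb for all protein-coding genes and 233 kb for those at 0 TPM. Tbx3 had 26 interactions, 15 of them scored at least 10, with 32.43 at 791 kb. Hoxa3 and Hoxa7 share a bait with 27.57 to Snx10 at 629 kb, and Neurog2 had 18.56 at 314 kb. All 4 of these genes were at 0 TPM.

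Gene families differed widely. Of all protein-coding genes with a bait, 86.1% had an interaction, the median was 5 and 43.0% reached 10. Of 55 histone genes with a bait, which lie on 32 baits, 53 (96.4%) had an interaction, with a median of 13, and 47 (85.5%) reached 10. Their median highest score was 20.4 and their median distance 98.9 kb. Within the Hist1 cluster the bait of Hist1h2af, Hist1h3g and Hist1h4h had 64 interactions and 45.37 to the bait of Hist1h2bh and Hist1h3f only 16.4 kb away, and 49 of the 55 genes were above 1 TPM. All 78 ribosomal protein genes with a bait had an interaction, with a median of 10.5, and 48 (61.5%) reached 10. Their median expression was 141 TPM, and they stood close to all genes above 5 TPM, which had a median of 10 interactions and 61.2% reaching 10. Rps20 had 35.55 to an intron of Tgs1 at 227 kb, Rpl37 30.43 to Oxct1 at 1090 kb, Rps27l 30.27 to chromosome 2, and Rpl29 26.65 to Poc1a at 149 kb. Of 280 Zfp zinc finger genes with a bait (of 394), 242 (86.4%) had one, with a median of 5, and 126 (45.0%) reached 10, close to the general level. Zfp874b (48.05) and Zfp324 (47.64) had their highest scores with other chromosomes, Zfp384 had 34.38 to the start sites of Cdca3 and Usp5 at 204 kb, and Zfp787 32.18 to the start of Zfp865 at 1135 kb.

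Clusters of silent receptors stood at the low end and the protocadherins at the high end. Beside them, 72.7% of protein-coding genes at 0 TPM had an interaction, with a median of 2, and 29.2% of all genes at 0 TPM reached 10. Of 667 olfactory receptor genes with a bait (of 1092), 450 (67.5%, interval 63.8-70.9) had an interaction, with a median of 1, and 86 (12.9%) reached 10. Olfr850 (117.48), Olfr557 (57.47) and Olfr49 (56.89) had their highest scores with other chromosomes and Olfr1393 had 36.04 to Btnl9 at 90.9 kb. Of 71 vomeronasal receptor genes with a bait (of 328), 47 (66.2%) had one, with a median of 1, and 8 (11.3%) reached 10. These included Vmn1r234 with 17.19, Vmn1r84 with 13.89, Vmn1r181 with 12.25 and Vmn1r4 with 22.86, whose bait also holds the start site of another gene. All 26 protocadherin cluster genes with a bait (of 56) had one, with a median of 21.5, and 17 (65.4%) reached 10, while none was above 1 TPM. Pcdhb14 had 37.67, the bait of Pcdhb15 and Pcdhb16 34.8 and Pcdhb17 34.43, each to Diaph1 at between 398 and 441 kb. Members of these families are similar in sequence, and how reads were shared between them was not tested.

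The remaining lists are read against the 86.1% of protein-coding genes with an interaction and the 43.0% that reached 10. All 19 MHC genes with a bait had an interaction, with a median of 4, and 7 reached 10. Among them were H2-DMa (29.33) and H2-D1 (22.43) with other chromosomes, H2-Ob (19.45) and H2-Ab1 (15.67). The bait of H2-DMa also holds the start site of another gene. Of 11 housekeeping genes with a bait all had one, with a median of 20, and 9 reached 10. They were led by the bait of Tbp and Psmb1 (26.49), Eef2 (22.53, on a bait shared with other genes), Tubb5 (20.26) and Hprt (15.98). Of 9 T cell genes with a bait 6 had one and 2 reached 10, while Zap70 had 9.44 and Cd28 8.60. Cd4 was among the 2, with 47 interactions and 19.09 to the bait of Ing4 and Zfp384. All 5 erythroid genes with a bait (of 9) had one and 4 reached 10 (among them Gata1 19.46, Hba-a1 19.45, Klf1 11.8). All 4 fibroblast genes with a bait (of 6) had one, and Col3a1 alone reached 10 (24.6), with Col1a1 at 8.06, Pdgfra at 7.90 and Col1a2 at 5.43.

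A small part of the list joined very distant places. Interactions between chromosomes numbered 880 (0.634%), with a median score of 14.7 against 6.80 on 1 chromosome, and all 66 scores of at least 100 were among them. A further 341 on 1 chromosome spanned over 5 Mb. Of these 1221, 307 stood alone, with no other within 500 kb at both ends, while 39 groups of at least 5 held 775 (63.5%). Between chromosomes, the single ones had a median score of 10.4 and the grouped ones 17.9. Relisting at 1h was 14.1% (9.31-20.8) for those between chromosomes scored 5-7 and 89.5% (85.4-92.6) for those scored at least 25.

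The largest group, 180 interactions of 13 baits, joined 13.6-14.5 Mb and 48.9-49.7 Mb of chromosome 13. Its highest score, 51.5, was between the baits of Fam120a and of Arid4b and Ggps1, 34902 kb apart, and the lists of 1h, 12h and 48h held 198, 50 and 49 pairs between the same regions. The bait of Esp8, an exocrine gland peptide gene on chromosome 17 at 0 TPM, had 124 interactions, the most of any bait, of which 3 were on its own chromosome. Most of the others belonged to a group of 118 interactions of 2 baits between this place and 39.5-40.8 Mb of chromosome 7 (highest 715.43). The bait of Kcnab3 and Rnf227 on chromosome 11 had 105, of which 23 were on its own chromosome. It took part in a group of 84 interactions of 4 baits, some of them Ces1 baits, between this place and 92.9-93.8 Mb of chromosome 8, which held the highest score of the whole list, 1161.07. Another group had 28 baits of chromosome 4 (155.6-156.2 Mb) contacting 4 fragments at 35.6 Mb of chromosome 18 in 46 interactions.

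Other scores of this kind were held by baits with few contacts. The bait at chr16:71018106-71021264, without an annotated start site, had 2 interactions, both with chromosome 2, and 1026.06 as the highest. Gm26327 had 576.92 to chromosome 3 and Asz1 310.36 to chromosome 18. On 1 chromosome, Nedd1, which encodes a centrosomal recruiter of gamma-tubulin, had a single interaction, with 75.6 across 49174 kb. Fat4, an atypical cadherin gene at 0 TPM, had 48.44 at 1556 kb, with all 24 partners on one side, Steap1 44.71 at 2244 kb, and Rimkla 40.69 at 3364 kb. In all of these cases the pair named was also listed at 1h, 12h and 48h.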

How the data were processed

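PCHi-C and RNA-seq of uninduced C10 cells were analysed. For PCHi-C the authors cut chromatin with HindIII, processed reads with HiCUP, merged 2 replicates and ran CHiCAGO, and deposited a score of at least 5 per pair of fragments of mm10. The unit of column 5 of the lists of 1h, 12h and 48h is not given in the sources used here, and only the presence of pairs was read from them. For RNA-seq the authors deposited TPM of rRNA-depleted RNA. The submitters' processing notes name Trim Galore 0.6.2, HISAT2 2.1.0, FastQC, RSEM, HOMER and mm10. The TPM and the score keep no read counts.

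Each pair of fragments was counted once. A bait is a fragment in the bait column of any of the 4 lists, and genes were placed by GENCODE M21 start sites. A captured promoter that never stands in this column is not counted as a bait. Shares of genes with an interaction can therefore lie above those of all captured promoters. A bait with start sites of several genes counts for each of them. Genes with Gm or accession names and small RNA genes were passed over when a fragment was called intergenic. All listed fragments matched a HindIII digest of GRCm38. The CTCF core motif was searched on both strands of whole fragments, leaving out fragments with over 50% N. RefSeq promoter sequences cover 250 bases before to 50 after a start and were matched by symbol. Python 3.11.15, pandas 2.3.3, numpy 2.4.6, scipy 1.17.1, networkx 3.6.1 and matplotlib 3.10.9 were used, and the counting was tested on simulated data.

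The baits named are the 15 with the highest score on 1 chromosome over 10 kb, the 10 with the most interactions, the 5 with the highest score beyond 1 Mb, the 5 with the highest between chromosomes, and the 4 members of each gene list with the highest score. Further members of the lists, the baits with the most scores of at least 25, and the pairs with printed motifs (the highest-scored with 1 core motif at each end, leaving out chromosome 18) were chosen after their values were seen. Members, lists and rules were chosen with earlier results of these data known. Alternatives varied the score threshold, the distance measure, the baits and genes counted and the RNA libraries. Hi-C was not used here, and the values of 5 genes are not reported here.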

Additional observations from a re-analysis of the deposited data

How the results depend on the processing

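Over 10 results, 29 alternatives were tried, of which 3 were chosen after seeing the data. Of these, 14 stayed close to the value reported (within its interval where it has one) and 15 moved farther. A direction could turn only in the differences between TPM classes, where no alternative turned it, since the other results cannot be negative. Requiring a score of at least 10 left 26624 interactions, a median distance of 187 kb, a bait to bait share of 19.9%, a median of 2 interactions per bait, 3.64 per bait on X (4.53 on autosomes) and 2.25 more interactions per gene above 5 TPM than at 0 TPM. The values per bait cover only baits that kept an interaction at this threshold, 203 of them on X. Between the nearest fragment ends the median distance was 184 kb. Without bait to bait interactions the share scored at least 10 at 100-200 kb was 19.9%. With the baits of the 0h list alone the bait to bait share was 15.7%, and with each pair counted once, for the bait in the bait column, the median per bait was 5. The difference of 8.96 interactions per gene was 7.67 over genes with at least 1 interaction, 10.3 over protein-coding genes (chosen after seeing the data) and 8.71 to 8.98 when 1 RNA library was left out. The difference of 3.65 in median highest score was 3.03 beyond 50 kb and 3.60 to 3.71 without 1 library. At scores of at least 25, the share of partners with a core motif was 9.97%, and 11.4% on 1 chromosome alone (chosen after seeing the data). At scores of 5-7, the share relisted at 1h was 40.9% by exact pair and 71.2% within 10 kb.

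No paired analysis was possible because the merged list carries no replicate columns and no result comes from a test. With 1 merged list, replicate error is unknown, and pairs just under the score threshold are left out of a list, so absence is not lack of contact. Read counts were not used here, so depth could not be weighed against any score.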
